A study of Mus musculus with 6 samples.

Results

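The interferon effectors Ifit1, Ifit2, Ifit3, Rtp4, Ifi44, Ifi27l1, Apol9a, Apol9b, Lgals3bp and Bst2 are described here across 6 RNA sequencing libraries, as 10 of the 20325 genes listed by symbol. They were chosen with the data in view, for low levels in untransfected cells, a rise on transfection of a control siRNA and the share of that rise kept with an siRNA against Tet1. Apol9a and Apol9b share reads and were summed, which leaves 9 units. The libraries came from the lines pre3 and pre2-2 at passage 10. The series text calls both lines pre-iPSCs, cells stalled partway through reprogramming, while the sample labels call them OG2 transgenic mouse embryonic fibroblasts (MEFs) of a mixed 129SVJ, C57B6 and CBA strain. Each line was transfected with the siRNA against Tet1 (siTet1, labelled Tet siRNA in 1 field and Tet1 siRNA in others), with a control siRNA, or left untransfected. Every group was kept in mES medium supplemented with LIF, and vitamin C was added to all of them at 50 µg/ml. The sources differ on timing: the series text has vitamin C start at 16 h and last 32 h, whereas the sample descriptions give a vitamin C treatment of 36 h, in transfected cells within a total of 48 h. Each combination of line and treatment gave 1 library, so each treatment had 2, and no label says that separate cultures were used within a line. The p-values therefore measure only the spread between these libraries. With line in the fit, this is the disagreement of the 2 lines over the treatments, some or all of which may be technical. The test pools that spread largely over all genes, so a p does not rest on a gene's own libraries alone.

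Interferon-stimulated genes are switched on when secreted type I interferon binds its receptor, Ifnar1 with Ifnar2, and the kinases Jak1 and Tyk2 activate transcription factors of the Stat family. These join Irf9 and bind a DNA motif, the interferon-stimulated response element, in the promoters of their targets. Cells make interferon after sensors such as Ifih1 or Ddx58 detect foreign RNA, and double-stranded RNA introduced by transfection can trigger that route. The Ifit proteins bind foreign RNA or the translation machinery, and Bst2 (tetherin) holds budding virus particles at the cell surface.

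Library totals ran from 1868640 to 2582803 expected counts, so a floor of 3 counts stood at 1.16 to 1.61 CPM, the unit of counts scaled to library size. Levels are CPM with TMM factors unless given as counts, and intervals are exact 95% Poisson or conditional binomial intervals that cover counting error only. Tet1, the targeted gene, was at 158, 250 and 204 CPM in siTet1, control siRNA and untransfected pre3 and at 153, 245 and 249 CPM in the same groups of pre2-2. It was lowest in the siTet1 library of both lines. Of the cell type markers, Pou5f1 was at 5770 to 6590 CPM in pre3 and 1040 to 1200 CPM in pre2-2, and Col1a1 at 365 to 478 and 749 to 2040 CPM. Of 7 pluripotency markers tested, 3 were higher and 3 lower in pre3, against 14.4% and 15.8% of all genes, with a median of -0.18. Pou5f1 (2.45) and Dppa5a (1.77) were higher and Epcam was lower (-1.24). In bulk RNA, here and below, fewer cells of a type and less RNA per cell cannot be told apart. Leukocyte markers, checked because Bst2 also marks plasmacytoid dendritic cells, summed to 12.4 to 42.5 CPM over 11 genes, with Cd3e at 0 counts in every library.

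The promoter windows are shown because 5 of the 8 members with one in the RefSeq table hold the core letters of the interferon-stimulated response element. The windows run from 250 bases before to 50 bases after the gene's start. The letters searched were GAAA, any 2 bases and GAAA, which on the other strand read TTTC, any 2 bases and TTTC, with overlapping matches allowed. Of all 27025 genes in the table, 1079 (3.99%) had at least 1 match. Ifit1, Ifit3, Apol9a, Apol9b and Bst2 had 2 matches each, while these letters did not occur in any window of Ifit2, Ifi44 or Lgals3bp. The 200 bases before the start follow, 5′ to 3′ on the gene's strand, from RefSeq on GRCm38.p6, a later build than the mm9 of the deposited counts, with the matches in capitals.
Ifit1 (chr19:34640689-34640888, plus strand): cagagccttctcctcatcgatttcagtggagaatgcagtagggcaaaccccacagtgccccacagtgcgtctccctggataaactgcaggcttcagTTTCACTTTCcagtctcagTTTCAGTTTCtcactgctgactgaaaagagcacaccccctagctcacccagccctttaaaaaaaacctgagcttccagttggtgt
Ifit3 (chr19:34583329-34583528, plus strand): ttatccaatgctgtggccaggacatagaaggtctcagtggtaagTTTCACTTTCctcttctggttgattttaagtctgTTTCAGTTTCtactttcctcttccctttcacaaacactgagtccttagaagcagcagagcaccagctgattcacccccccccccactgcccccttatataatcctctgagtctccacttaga
Apol9a (chr15:77411081-77411280, minus strand): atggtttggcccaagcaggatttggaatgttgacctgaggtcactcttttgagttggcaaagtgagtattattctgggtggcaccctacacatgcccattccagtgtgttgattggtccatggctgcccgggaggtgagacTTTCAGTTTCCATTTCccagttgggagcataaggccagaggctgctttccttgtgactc
Apol9b (chr15:77728872-77729071, plus strand): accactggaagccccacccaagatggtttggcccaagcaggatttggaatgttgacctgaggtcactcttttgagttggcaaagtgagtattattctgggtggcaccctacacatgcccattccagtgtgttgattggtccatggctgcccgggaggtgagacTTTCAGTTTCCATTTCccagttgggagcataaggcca
Bst2 (chr8:71537473-71537672, minus strand): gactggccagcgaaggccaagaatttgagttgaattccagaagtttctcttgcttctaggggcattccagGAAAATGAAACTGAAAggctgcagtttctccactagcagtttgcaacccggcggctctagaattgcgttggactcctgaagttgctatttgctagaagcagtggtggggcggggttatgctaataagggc

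In Ifit1 and Ifit3 the same pair of letters stood apart, TTTCACTTTC upstream and TTTCAGTTTC downstream, beginning 104 and 85 bases before the start of Ifit1 and 156 and 122 bases before that of Ifit3. In Apol9a and Apol9b the 2 matches overlapped as TTTCAGTTTC and TTTCCATTTC, and in Bst2 they overlapped on the opposite strand as GAAAATGAAA and GAAACTGAAA. A match is a run of letters, not a measured binding site.

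The Ifit genes encode interferon-induced proteins with tetratricopeptide repeats and lie in 1 cluster on mouse chromosome 19, in the order Ifit2, Ifit3, Ifit1bl1, Ifit3b, Ifit1bl2, Ifit1. Ifit1, which binds RNA that lacks the host cap methylation, had 3, 2 and 0 counts in siTet1, control siRNA and untransfected pre3. In pre2-2 it had 17, 108 and 3 counts in the same groups, or 7.76, 54.2 and 1.16 CPM. A level well above the floor was thus seen only in the 2 transfected pre2-2 libraries. The control siRNA library of pre2-2 stood 46.8-fold above its untransfected library (95% counting interval 15.6 to 231), and the siTet1 library was at 0.146 of the control siRNA library (0.0818 to 0.244).

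Ifit3, which works in a complex with other Ifit proteins, had 0, 4 and 0 counts in siTet1, control siRNA and untransfected pre3. In pre2-2 it had 4, 39 and 5 counts in those groups. Only the control siRNA library of pre2-2 stood apart, and the siTet1 library there matched the untransfected one within counting error (ratio 0.963, 0.191 to 4.47). Its neighbour I830012O16Rik, now named Ifit3b, had 2, 46 and 0 counts in the same pre2-2 libraries and at most 1 in any pre3 library. The pair shares sequence, with 51.2% of the 50-base words of Ifit3 transcripts also found in Ifit3b, so the split of reads between them is uncertain. Their sum was 6, 85 and 5 counts in siTet1, control siRNA and untransfected pre2-2.

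Ifit2, a family member that can promote cell death, stayed low in every library. It had 1, 1 and 2 counts in siTet1, control siRNA and untransfected pre3 and 7, 10 and 3 counts in pre2-2. Its ratio of control siRNA to untransfected in pre2-2 was 4.34 (1.12 to 24.5), and in pre3 it was 0.520 (0.00881 to 9.98). The description as strongly induced did not hold for Ifit2, and neither Ifit2 nor Ifit3 passed the filter on low counts used for testing.

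**Figure D1:**
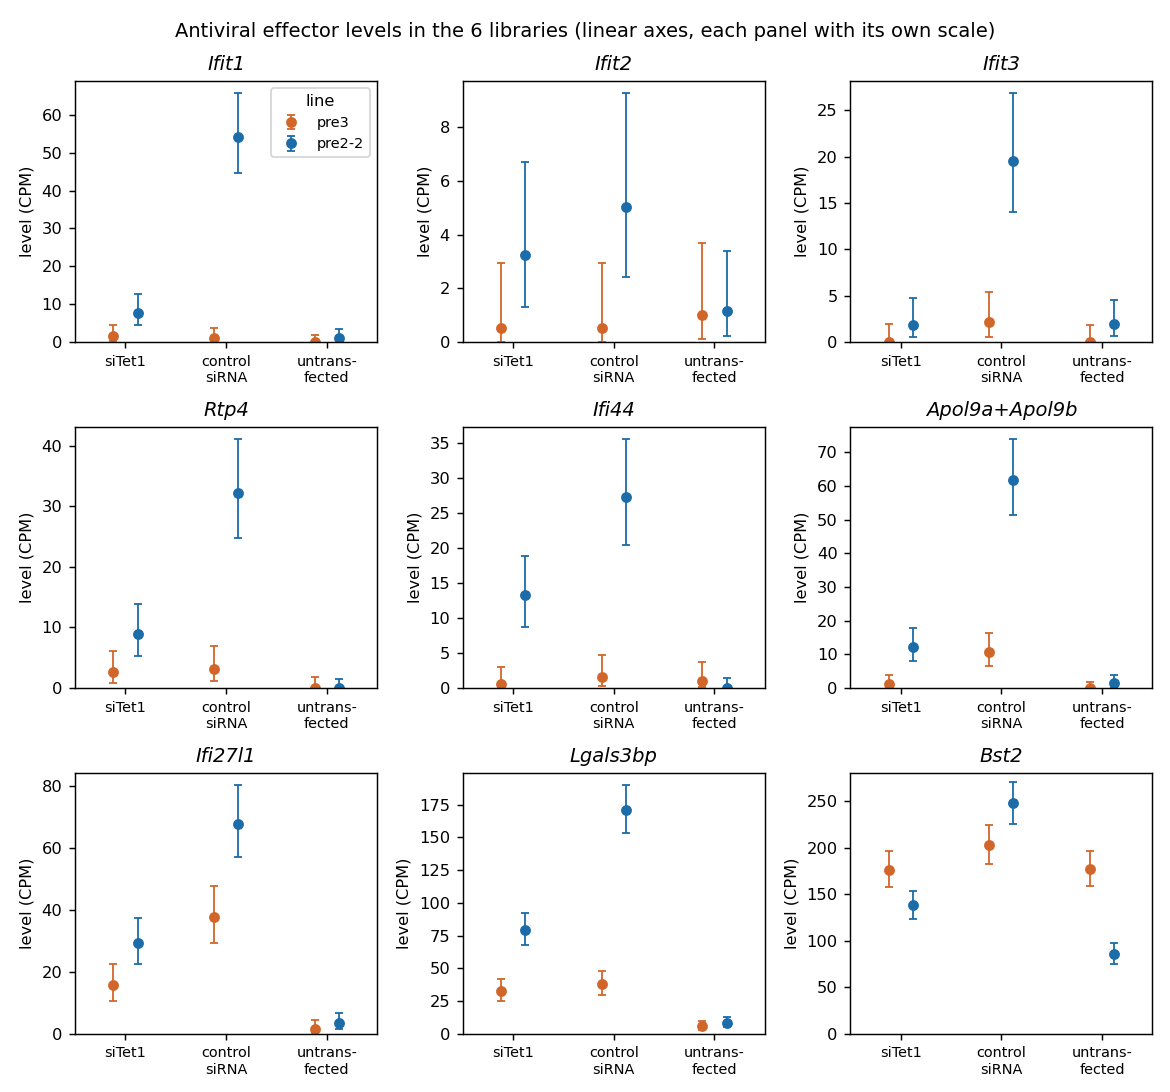
Level of each antiviral effector in the 6 libraries, in CPM on linear axes with a separate scale per panel, for siTet1, control siRNA and untransfected cells; points are single libraries of pre3 (orange) and pre2-2 (blue), and bars are exact 95% counting intervals. The control siRNA library of pre2-2 is the highest point of every panel, from 5.03 CPM for Ifit2 to 248 CPM for Bst2. Untransfected cells are near 0 except for Bst2 and, at 5.62 CPM in pre3 and 8.12 CPM in pre2-2, Lgals3bp.

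Rtp4, a chaperone that helps receptors reach the cell surface, had no count in either untransfected library. In pre3 it had 5 counts with siTet1 and 6 with control siRNA, and in pre2-2 it had 19 and 64. The ratio of control siRNA to untransfected had a lower 95% limit of 1.22 in pre3 and 21.9 in pre2-2. With siTet1 that limit was 5.62 in pre2-2. The 5 counts of siTet1 pre3 against 0 could not be told from no rise, with a lower 95% limit of 0.95 on the ratio.

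Ifi44, a cytoplasmic interferon-induced protein, showed its levels in pre2-2 alone. It had 1, 3 and 2 counts in siTet1, control siRNA and untransfected pre3, which overlapped within counting error. In pre2-2 it had 28, 54 and 0 counts, or 13.2, 27.2 and 0 CPM. The siTet1 library of pre2-2 stood at 0.480 of the control siRNA library (0.293 to 0.771). Its ratio to the untransfected library had a lower 95% limit of 8.55.

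Apol9a and Apol9b, mouse genes of the apolipoprotein L family, summed to 2, 20 and 0 counts in siTet1, control siRNA and untransfected pre3. In pre2-2 they summed to 26, 123 and 4 counts, or 12.1, 61.9 and 1.55 CPM. In both lines the control siRNA library was the highest and the siTet1 library lay nearer to the untransfected one. The ratio of siTet1 to control siRNA was 0.0997 in pre3 (0.0113 to 0.411) and 0.196 in pre2-2 (0.123 to 0.300). Of the 50-base words of Apol9a transcripts, 55.3% also occurred in Apol9b.

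Ifi27l1, now named Ifi27, encodes a small mitochondrial protein linked to cell death. It had 30, 71 and 3 counts in siTet1, control siRNA and untransfected pre3 (15.9, 37.7 and 1.53 CPM). In pre2-2 it had 63, 135 and 9 counts (29.3, 67.9 and 3.48 CPM). Both lines gave the same order, with control siRNA highest and untransfected lowest. The ratio of control siRNA to untransfected was 24.6 in pre3 (8.08 to 122) and 19.5 in pre2-2 (9.98 to 43.6), and that of siTet1 to control siRNA was 0.421 in pre3 (0.265 to 0.654) and 0.432 in pre2-2 (0.315 to 0.586).

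Lgals3bp encodes a secreted glycoprotein that binds galectin-3. It was at 32.8, 37.7 and 5.62 CPM in siTet1, control siRNA and untransfected pre3 and at 79.2, 171 and 8.12 CPM in pre2-2. The 2 transfected libraries of pre3 lay close together, with a ratio of siTet1 to control siRNA of 0.871 (0.609 to 1.24), while in pre2-2 that ratio was 0.463 (0.382 to 0.558). Control siRNA stood 6.71-fold above untransfected cells in pre3 (3.53 to 14.0) and 21.1-fold in pre2-2 (13.6 to 34.5).

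Bst2 was not near 0 in untransfected cells, against the description of the group. It was at 176, 203 and 177 CPM in siTet1, control siRNA and untransfected pre3 and at 138, 248 and 85.9 CPM in pre2-2. In pre3 the 3 libraries lay within counting error of each other, with control siRNA 1.14-fold above untransfected cells (0.987 to 1.33). In pre2-2 control siRNA was 2.88-fold above untransfected cells (2.46 to 3.39) and siTet1 was 1.60-fold above them (1.34 to 1.92). By TPM, the deposited share of transcripts, which allows for gene length, Bst2 was also the highest member in every library, at 230 to 687 TPM. In the control siRNA library of pre2-2, where most members were highest, Lgals3bp followed at 167 TPM and Ifi27l1 at 137, then Apol9a and Apol9b together at 87.4. Ifit1 (43.4 TPM) and Rtp4 (43.3 TPM) did not differ beyond counting error, nor did Ifit3 (20.6 TPM) and Ifi44 (19.8 TPM), and Ifit2 was last at 2.69 TPM.

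The share of the rise over untransfected cells that was kept with siTet1, set against the rise with control siRNA, differed between members. Only members with at least 10 counts in the control siRNA library of a line are given. In pre3, where 4 members met this, Apol9a and Apol9b together kept 9.97% (counting SE 8.57), Ifi27l1 kept 39.7% (SE 9.52) and Lgals3bp kept 84.8% (SE 17.6). Bst2 had no rise there from which a share could be read (-3.63%, SE 54.0). In pre2-2 the share ran from -0.275% for Ifit3 (SE 7.28) to 54.2% for Ifit2 (SE 39.6), with a median of 32.1% over 9 members.

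Among the other members in pre2-2, Ifit1 kept 12.4% (SE 3.95) and Apol9a with Apol9b kept 17.5% (SE 4.38), while Ifi27l1 kept 40.1% (SE 6.88), Lgals3bp kept 43.6% (SE 4.52) and Ifi44 kept 48.4% (SE 11.3). Rtp4 kept 27.5% (SE 7.23) and Bst2 kept 32.1% (SE 5.94). Ifi27l1 gave nearly the same share in both lines, whereas that of Lgals3bp was larger in pre3 than in pre2-2. These shares were among the values by which the genes were chosen and are given with no test, and each rests on single libraries.

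**Figure D2:**
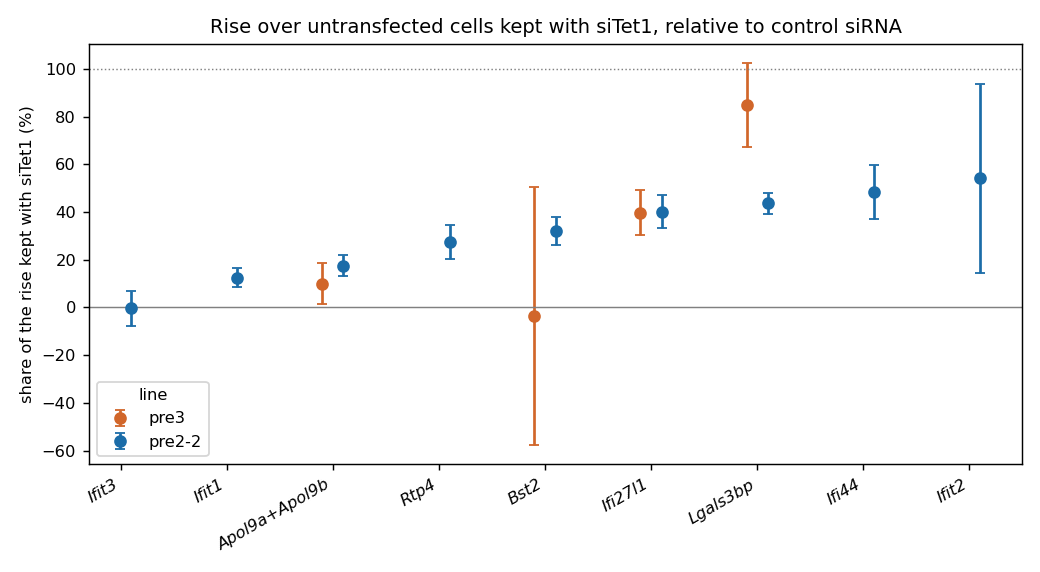
Share of the rise over untransfected cells kept with siTet1, in percent of the rise with control siRNA, for members with at least 10 counts in the control siRNA library; points are pre3 (orange) and pre2-2 (blue) and bars are 1 counting SE. In pre2-2 the members run from -0.275% for Ifit3 to 54.2% for Ifit2, and Ifi27l1 sits near 40% in both lines.

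In the fit of line and treatment to all 6 libraries, 7 of the 9 units passed the filter on low counts. A call is an adjusted p under 0.05 from edgeR's quasi-likelihood test, here and below. Between siTet1 and control siRNA, 4 of the 7 were called lower (Ifit1, Ifi27l1, Lgals3bp and Apol9a with Apol9b), where 0.435% of all 11047 genes were called lower, 1.15% higher and 1.58% in either direction. Between control siRNA and untransfected cells all 7 tested were called higher, where 1.37% of genes were called higher, 0.0996% lower and 1.47% in either direction. Between siTet1 and untransfected cells 6 were called higher, all but Bst2, where 4.92% of genes were called higher, 1.63% lower and 6.55% in either direction. The members were chosen on these contrasts, which share libraries, so nothing is read from the counts and no p is given for a member. For the 3 members tested with a count in every library, the log2 difference of siTet1 from control siRNA was -1.22 for Ifi27l1 (SE 0.21), -0.80 for Lgals3bp (SE 0.20) and -0.55 for Bst2 (SE 0.18). That of control siRNA from untransfected cells was 4.35 (SE 0.31), 3.89 (SE 0.28) and 0.85 (SE 0.18) for the same genes. Without the pre2-2 control siRNA library, 0 members were called lower with siTet1 than with control siRNA by edgeR (2 at an unadjusted p under 0.05), and 3 of 7 were called higher with control siRNA than in untransfected cells. Without the pre2-2 siTet1 library 0 of 9 were called lower (3 at an unadjusted p under 0.05), and without the pre2-2 untransfected library 3 of 9 were called higher with control siRNA and 2 of 9 with siTet1. The number of genes called in all fell too in each of those refits. Without either untransfected library, or the pre3 control siRNA library, more members were called lower with siTet1 than with control siRNA, but more units were then tested. The number of genes called in all also rose without either untransfected library, and it fell without the pre3 control siRNA library.

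The difference between the lines was not named in the choice of the genes, but it draws on the same 6 libraries. Only Ifi27l1, Lgals3bp and Bst2 reached the filter's level of 5.04 CPM in at least 2 libraries of each line, so that the filter does not favour 1 line. The other 4 units tested, Ifit1, Rtp4, Ifi44 and Apol9a with Apol9b, needed the pre2-2 libraries to pass, and no p is given for them. Of the 3, Lgals3bp was lower in pre3 than in pre2-2 (log2 fold change -1.66, SE 0.19, adjusted p = 2.74e-07) and so was Ifi27l1 (-0.88, SE 0.21, adjusted p = 0.0019), where edgeR called 15.8% of all genes lower, 14.4% higher and 30.2% in either direction. Bst2 was at 0.34 (SE 0.15) and did not pass (adjusted p = 0.0905). In untransfected cells, Lgals3bp was at 5.62 CPM in pre3 (2.81 to 10.1) and 8.12 CPM in pre2-2 (5.03 to 12.4), which overlap. Untransfected Ifi27l1 was at 1.53 CPM (0.316 to 4.48) and 3.48 CPM (1.59 to 6.61), which overlap too. Both calls thus draw mainly on the transfected libraries, whose rise was used in the choice. Their p-values give no support of their own. Apol9a with Apol9b were highest at 10.6 CPM in any pre3 library, against 61.9 CPM in any of pre2-2, and Ifit1 at 1.59 against 54.2 CPM.

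**Figure D3:**
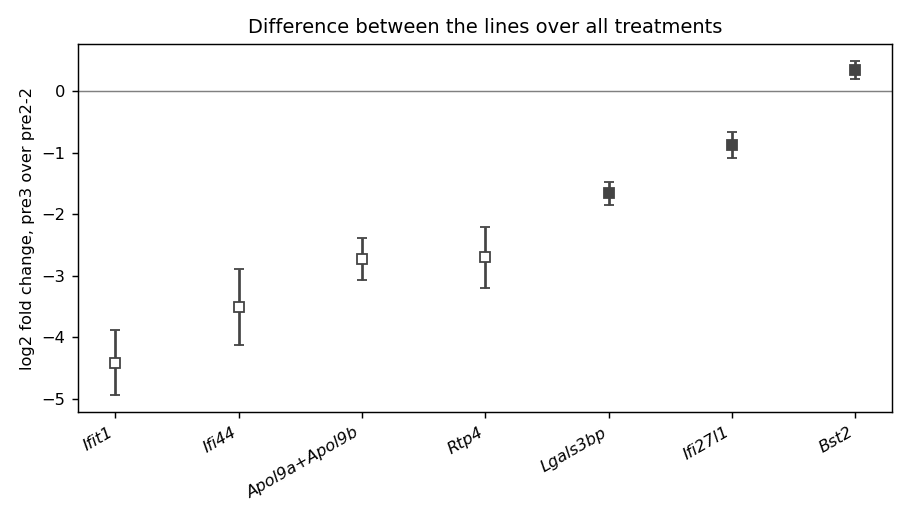
Log2 fold change of pre3 over pre2-2 from the fit of line and treatment to 6 libraries, for the 7 units tested; points are estimates and bars are 1 SE. Filled points passed the filter on low counts in either line alone and run from -1.66 for Lgals3bp to 0.34 for Bst2, and open points passed only with the pre2-2 libraries and are shown without a test.

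The call of Ifi27l1 ended without the control siRNA library of pre2-2 (-0.92, adjusted p = 0.0649), without that of pre3 (-0.89, adjusted p = 0.0624) and with DESeq2 (-0.91, adjusted p = 0.0821). Lgals3bp stayed past the threshold in each of these, at -1.11, -1.09 and -1.52. Bst2 was called higher in pre3 with no filter on low counts (0.35, adjusted p = 0.0141) and without the control siRNA library of pre3 (0.71, adjusted p = 0.000359) or of pre2-2 (0.69, adjusted p = 0.000312), and stood at 0.01 without either untransfected library. All 9 fibroblast markers tested were lower in pre3, against 15.8% of all genes, with a median of -1.64. Their summed level was 1120, 1020 and 872 CPM in siTet1, control siRNA and untransfected pre3 against 3230, 3900 and 1700 CPM in pre2-2. Their sum was higher in both transfected libraries than in the untransfected one of each line. Against untransfected cells, 3 of the 9 were called higher with control siRNA and 6 with siTet1, where 1.37% and 4.92% of all genes were. Their part in the members' differences was not tested.

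A further fit asked whether the step between transfected and untransfected cells differed between the lines, under the assumption that siTet1 and control siRNA differ equally in both lines. The rise on transfection was among the values by which the members were chosen, so its p-values give no support of their own. For Bst2 the ratio of siTet1 to control siRNA was 0.869 in pre3 (0.748 to 1.01) and 0.557 in pre2-2 (0.480 to 0.644). For Lgals3bp it was 0.871 (0.609 to 1.24) and 0.463 (0.382 to 0.558). The assumption thus did not hold within counting error for either gene. For Ifi27l1 the ratios were 0.421 (0.265 to 0.654) and 0.432 (0.315 to 0.586). The fit is given for Ifi27l1, Lgals3bp and Bst2, the members tested that had a count in every library. That limit was set after the data were seen, since the estimate rests on a prior where a library holds 0. Bst2 had a step smaller in pre3 than in pre2-2 by a log2 difference of -1.04 (SE 0.18, adjusted p = 6.01e-06 from edgeR), where 1.66% of all genes were called lower, 0.778% higher and 2.44% in either direction. Its call ended with DESeq2 (-1.01, adjusted p = 1.00), which called 7 genes in all. Lgals3bp stood at -1.26 (SE 0.60, adjusted p = 0.322) and Ifi27l1 at 0.29 (SE 0.89, adjusted p = 0.937), and neither passed. Whether the difference between siTet1 and control siRNA itself differed between lines was not tested. Added to this fit, that question would leave no libraries to estimate the spread.

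The signalling genes upstream of the members were also measured. None of 13 type I or III interferon genes in the files passed the filter, and Ifnb1, the first interferon made on RNA sensing, had 0 counts in all 6 libraries. Neither receptor gene passed the edgeR test: with siTet1 over control siRNA the log2 fold change of Ifnar1 was 0.13 (SE 0.17, adjusted p = 0.857) and that of Ifnar2 was 0.26 (SE 0.25, adjusted p = 0.787), and with control siRNA over untransfected cells they were 0.05 (adjusted p = 0.967) and 0.16 (adjusted p = 0.926). Of 13 receptor and Jak-Stat genes tested, 4 were lower and 1 higher with siTet1 than with control siRNA, against 0.435% and 1.15% of all genes. With control siRNA over untransfected cells 3 were higher and none lower, against 1.37% and 0.0996% of all genes. Among those higher were Usp18 (5.70) and Irf9 (1.35). Irf9 fell with siTet1 (-1.05, SE 0.21, adjusted p = 0.00686), as did Stat2 (-1.12, SE 0.28, adjusted p = 0.0394) and Usp18, a brake on the receptor (-2.02, SE 0.39, adjusted p = 0.00497).

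By library, Stat2 was at 14.3, 18.6 and 18.9 CPM in siTet1, control siRNA and untransfected pre3 and at 20.0, 58.4 and 21.3 CPM in pre2-2. Irf9 was at 20.9, 36.2 and 13.8 CPM in the same groups of pre3 and at 28.6, 69.0 and 27.1 CPM in pre2-2. The siTet1 library of pre2-2 thus lay near its untransfected library for both, while the pre3 libraries of Stat2 lay close together. Irf7, the factor that amplifies interferon production, was at 3.71, 11.2 and 0 CPM in pre3 and at 16.8, 72.1 and 2.32 CPM in pre2-2. Irf3, the factor present before infection, was at 38.1, 27.1 and 36.8 CPM in pre3 and at 39.1, 38.3 and 51.1 CPM in pre2-2, and was not called between siTet1 and control siRNA (0.25, SE 0.21, adjusted p = 0.748).

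**Figure D4:**
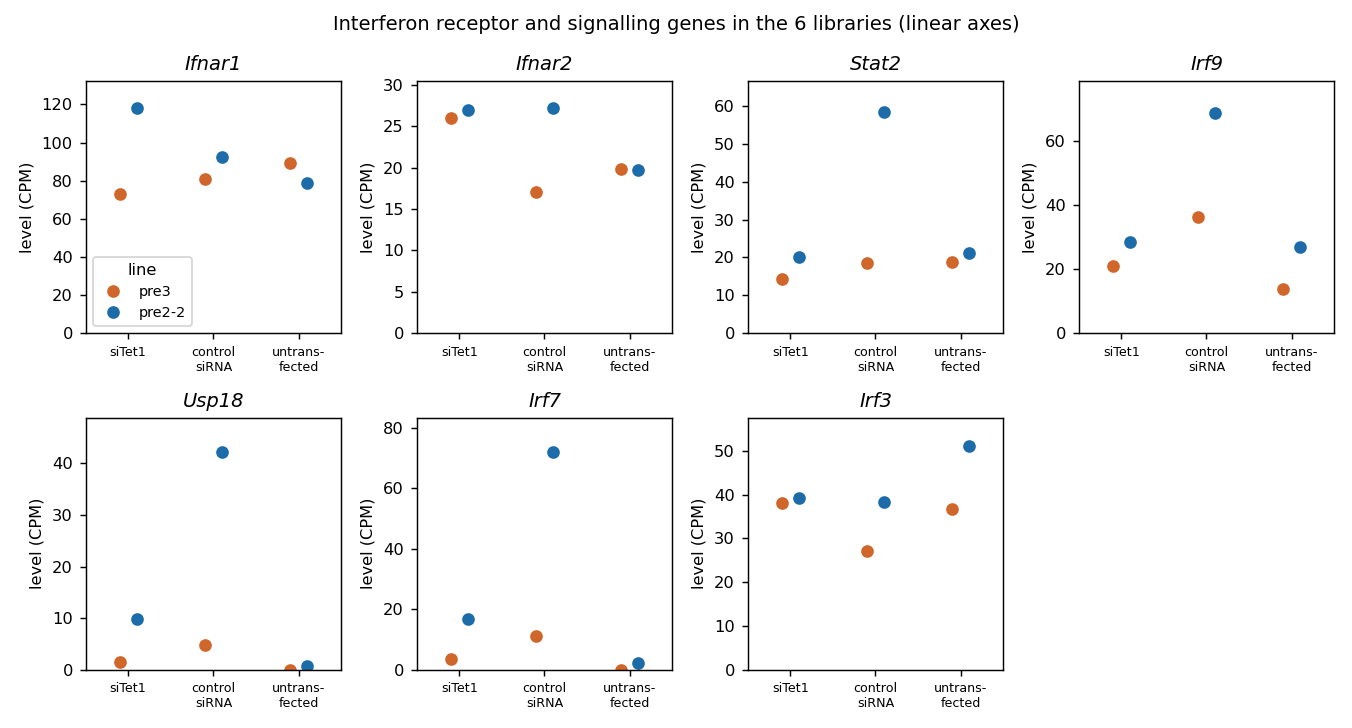
Level in CPM (linear axes from 0) of receptor and signalling genes in siTet1, control siRNA and untransfected cells; each point is 1 library of pre3 (orange) or pre2-2 (blue). Stat2, Irf9, Usp18 and Irf7 are highest in the control siRNA library of pre2-2, while Irf3 is highest in its untransfected library at 51.1 CPM.

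Of 13 sensor, adaptor and regulatory factor genes tested, 3 were lower and none higher with siTet1 than with control siRNA, and 5 were higher and none lower with control siRNA than in untransfected cells. The 3 were Irf7 (-1.99, SE 0.29, adjusted p = 0.000286) and the RNA sensors Eif2ak2 (-0.73) and Ddx58 (-0.72). Of 33 other interferon-stimulated effectors tested, 12 were lower and 1 higher with siTet1 than with control siRNA, with a median of -0.93 against 0.00 for all genes. Against untransfected cells, 15 were higher and none lower with control siRNA (median 1.05), and 6 were higher and 2 lower with siTet1 (median 0.16). Between the lines 20 of these 33 were lower and 2 higher in pre3, with a median of -0.88, against 15.8% and 14.4% of all genes. With siTet1 over control siRNA, 0.435% of all genes were called lower and 1.15% higher. With control siRNA over untransfected cells 1.37% were called higher and 0.0996% lower, and with siTet1 over untransfected cells 4.92% and 1.63%. Of 4 genes tested from a list of relatives of the members, Lgals9 was higher with control siRNA than in untransfected cells (2.17, SE 0.23, adjusted p = 8.96e-07 from edgeR). None of the 4 was called between siTet1 and control siRNA by edgeR. Lgals9 encodes a galectin and is no family relative of Lgals3bp, which binds a galectin but is not one.

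Among 11040 other genes, those whose log2 CPM over the 6 libraries followed the mean profile of the 7 members tested most closely were Usp18 (Pearson r = 0.993), Sepx1 (0.991), Ifi203 (0.987), Zbp1 (0.986) and Rnf11 (0.983). These values describe 6 libraries that share lines and treatments. Usp18 ran from 0 to 42.3 CPM, whereas Sepx1 ran only from 20.9 to 25.2 CPM, so likeness of profile did not mean a like range. That range of Sepx1 is narrower than the counting interval of 1 library at such a level. For Apol9b at 22.2 CPM in control siRNA pre2-2 the interval was 16.1 to 29.7 CPM. The r of Sepx1 is thus not read as a shared response. Set against the mean of the other members, Rtp4 had an r of 0.990 and Lgals3bp 0.970, and Bst2 stood lowest at 0.544.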

How the data were processed

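For every gene symbol the deposited files give the expected count and the fraction that the authors made with RSEM 1.1.21 on mm9, per the submitters' processing notes. The expected count estimates a gene's reads without normalization, and the deposited fraction is its share of transcripts, scaled here to TPM. Aligner settings are not given in the sources used here. A deposited table of TPM was not used: it repeats the fractions, and 1 column name matches no sample. Expected counts were rounded and Apol9a and Apol9b summed. edgeR 4.0.16 (R 4.3.3) was run with TMM factors, filterByExpr at a minimum count of 10 and two-sided quasi-likelihood tests of 11047 genes, with p-values adjusted by Benjamini-Hochberg, on line and treatment in all 6 libraries (2 residual degrees of freedom, 1 with the interaction). The spread of each gene was drawn toward that of all genes, with 23.2 prior degrees of freedom in the fit without the interaction. The SE was derived from each estimate and its F statistic. The libraries are paired by cell line, per the labels, and their deviations correlated at 0.667 to 0.772 between treatments. Alternatives used DESeq2 1.42.0, limma 3.58.1, RLE factors, no filter, no line term, genes kept apart or summed, and each library left out. Named genes were all members, at most 3 called genes per list with the largest change, 8 preset signalling genes, of which 1 is not reported here, and the 5 genes of closest profile; Col1a1, Pou5f1 and I830012O16Rik were named after their values were seen. The members and the 10 gene lists were chosen with earlier results of these data known. Shared 50-base words were counted in GENCODE M21 transcripts.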

Additional observations from a re-analysis of the deposited data

Results flagged for a closer look

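Bst2 was marked because the step between transfected and untransfected cells differed between the lines by a test of the difference itself (edgeR's quasi-likelihood test, log2 difference of pre3 from pre2-2 -1.04, SE 0.18, adjusted p = 6.01e-06). Its 2 transfected libraries were at 176 and 203 CPM in pre3, against 177 CPM untransfected, and at 138 and 248 CPM in pre2-2, against 85.9 CPM untransfected. The fit takes siTet1 and control siRNA to differ equally in both lines. Their ratio for Bst2 was 0.869 in pre3 (95% counting interval 0.748 to 1.01) and 0.557 in pre2-2 (0.480 to 0.644), intervals that do not overlap. The p thus rests on an assumption that the counts do not bear out. The rise on transfection was also among the values by which Bst2 was chosen, and the fit left 1 residual degree of freedom. Taken apart, control siRNA stood 1.14-fold above untransfected cells in pre3 (0.987 to 1.33) and 2.88-fold in pre2-2 (2.46 to 3.39), and siTet1 0.995-fold (0.853 to 1.16) and 1.60-fold (1.34 to 1.92). The adjusted p ran from 6.01e-06 to 1.00 over the alternatives, with DESeq2 as the 1 alternative in which it did not pass.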

How the results depend on the processing

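Calls on few libraries depended on the tool and on single libraries. Between siTet1 and control siRNA 175 genes and 4 members (lower) were called. Without a filter, which tested 15762 genes and 9 units in place of 11047 and 7, these were 290 and 7. With DESeq2 they were 25 and 1, and with limma voom 0 members passed (5 at an unadjusted p under 0.05). Between control siRNA and untransfected cells 162 genes and 7 members (higher) were called, against 257 genes without a filter and 31 genes and 4 members with DESeq2. Between siTet1 and untransfected cells 724 genes and 6 members were called, against 87 and 3 with DESeq2. Between the lines the count was 3334 genes, against 1428 with DESeq2, and for the interaction it was 269 genes and 1 member, against 7 and 0 with DESeq2 (1 member at an unadjusted p under 0.05).

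With no replicate block, that is without the line in the model, edgeR called 0 genes in each of the 3 treatment comparisons and 0 members. At an unadjusted p under 0.05 there were then 177, 83 and 352 genes for siTet1 over control siRNA, control siRNA over untransfected and siTet1 over untransfected, and 1, 5 and 3 members.

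Leaving out each library in turn gave 34 to 631 genes and 0 to 7 members for siTet1 over control siRNA, 28 to 732 genes and 3 to 8 members for control siRNA over untransfected, and 172 to 1900 genes and 2 to 7 members for siTet1 over untransfected. Between the lines it gave 2153 to 3631 genes and 3 to 8 members lower in pre3, a count that is no support, since most of these members passed the filter through pre2-2. The refits tested 7 or 9 units, so their counts of members do not share a base. The lone library left in a group is assumed to vary like the other groups. The interaction could not be refitted this way, since no residual degrees of freedom would be left. The median share of the rise kept was 31.5 to 34.1% in pre2-2 and 24.8 to 31.7% in pre3 over the scalings tried. Leaving Bst2 out of it, an alternative added after the data were seen, gave 33.8% in pre2-2 and 39.7% in pre3, where Bst2 had no rise from which a share could be read. Summing Ifit3 with I830012O16Rik was likewise added later and changed no count of calls. Depth limits the low members: the 5 and 6 counts of Rtp4 in siTet1 and control siRNA pre3 give a ratio of 0.831 with an interval of 0.201 to 3.27.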

Other observations

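Reads of Apol9a and Apol9b were split differently between libraries. In siTet1 pre2-2 the pair held 8.9 and 17.1 expected counts, and in control siRNA pre2-2 it held 78.98 and 44.02. The ratio of siTet1 to control siRNA there was 0.105 for Apol9a (95% counting interval 0.0465 to 0.21) and 0.357 for Apol9b (0.191 to 0.638), and how much of this comes from the allocation of shared reads was not tested.

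NF-kappaB drives a second arm of the response to foreign RNA. Of 12 of its targets tested, 3 were higher with control siRNA than in untransfected cells (Vcam1 at 1.78, Ccl2 at 1.17 and Tnfaip2 at 0.96; median 0.60), 2 were higher with siTet1 than in untransfected cells (median 0.57), and none was called between siTet1 and control siRNA by edgeR. Of 7 pluripotency markers tested, 2 were higher with siTet1 than with control siRNA, Dppa5a (1.63) and Cdh1 (1.04), and none was called between control siRNA and untransfected cells. Of all genes, 1.15% were called higher with siTet1 than with control siRNA. Against untransfected cells, 1.37% were called higher with control siRNA and 4.92% with siTet1. The 8 targets of interferon gamma and MHC class II genes summed to 2.12 to 9.59 CPM per library, and none could be tested. Of 2 leukocyte markers tested, Lyz2 was lower in pre3 than in pre2-2 (-1.05, SE 0.37, adjusted p = 0.0353), but not in every pair: it was at 6.56, 6.90 and 6.10 CPM in siTet1, control siRNA and untransfected pre3 and at 14.3, 3.37 and 24.0 CPM in pre2-2.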
